A study of Mus musculus with 6 samples.

Results

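The genes described here are the ligands and receptors of 4 axon guidance systems in the embryonic lacrimal gland bud, namely the ephrins and Eph receptors, the semaphorins with plexins and neuropilins, the Slits with Robo receptors, and the netrins with Dcc and Unc5 receptors. They were matched by gene symbol, and 69 of the 23420 symbols in the count tables matched, made up of 35 ligands and 34 receptors. Lacrimal gland epithelium was cut by laser capture microscopy from mouse embryos at E14.5, when the bud has entered the periocular mesenchyme, and RNA was sequenced from 3 Control and 3 Pea3 TKO samples on a mixed background. Control samples carried the Le-Cre transgene, and Pea3 TKO samples were Le-cre, Pea3-/-, Ermfl/fl, Er81fl/fl. The groups therefore shared Le-Cre, which drives Cre recombinase with a GFP reporter in the conjunctival epithelium and lacrimal gland, while the Pea3 (Etv4) null allele was in every cell of the mutant embryo and Erm (Etv5) and Er81 (Etv1) were deleted only where Le-Cre was active. By its methods the study also used Le-Cre mice heterozygous for the Pea3, Erm and Er81 alleles as controls. For the sequenced controls its text names Le-Cre alone, and the titles of these 3 libraries read WT. Whether a library held 1 embryo or several was not given in the sources used here, and p-values measure the spread between these samples, which may in part be technical. The comparison asks which guidance genes differ in RNA level between Control and mutants of the Pea3 family. These ETS transcription factors act downstream of FGF signaling in this epithelium.

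Guidance cues were first studied in growing axons, where they attract or repel the tip of the axon. Ephrins stay attached to the cell surface, the A class by a lipid anchor and the B class by a transmembrane domain, and signal to Eph receptor tyrosine kinases, and back into their own cell, when cells touch. Class 3 semaphorins are secreted and act mostly through complexes of neuropilins and plexins, whereas classes 4 to 7 are held on the membrane and bind plexins directly. Slits are secreted ligands of Robo receptors, and netrins are secreted relatives of laminin that are read by Dcc and Unc5 receptors. The same families take part in tissue boundaries, cell sorting and the branching of epithelial organs such as mammary gland, salivary gland and lung.

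Sequencing depth was between 14194775 and 17860140 counts per library, so that 3 counts, the limit taken for detection, corresponded to 0.169 to 0.210 CPM (counts scaled to the library size by TMM normalization). Values are given in the order of replicates 1, 2 and 3 of each group. The targeted genes were measured first. Etv4 was at 184, 129 and 139.7 CPM in Control and 10.9, 19.1 and 28.4 CPM in Pea3 TKO, with a log2 fold change of -2.95, SE 0.31 and edgeR adjusted p = 0.000257. Etv5 was at 961, 1009.6 and 1202 CPM in Control and 88.2, 152 and 177 CPM in Pea3 TKO, with a log2 fold change of -2.93, SE 0.24 and edgeR adjusted p = 6.63e-05. Etv1 was at 33.9, 28.7 and 32.9 CPM in Control and 9.21, 9.37 and 9.98 CPM in Pea3 TKO, with a log2 fold change of -1.74, SE 0.20 and edgeR adjusted p = 0.000429. All 3 were lower in every mutant library, with counts left over in each. The ocular and gland epithelial markers summed to 3895 to 4921 CPM in Control and 8667 to 9353 CPM in Pea3 TKO, and 9 of the 12 rose in the mutant, among them Krt5 and Krt14, which stratified epithelia also express. Of 12 endothelial markers 2 could be tested and none passed, their sum being 28.4 to 35.2 CPM in Control and 19.6 to 31.7 CPM in Pea3 TKO, most of it from Egfl7, while Cdh5, Cldn5, Tie1 and Emcn were at or near 0 in all 6 libraries. The Schwann cell and crest markers summed to 327 to 417 CPM in Control and 178 to 220.2 CPM in Pea3 TKO, and 1 of the 6 tested, Erbb3, fell. In all, 10 epidermal and stratified epithelial markers were tested and all 10 rose, their sum going from between 186.9 and 1069 CPM, the highest being Control 1, to between 3164 and 5477 CPM. The mesenchymal markers summed to 112.1 to 220.9 CPM in Control but to 525.3 and 688.5 CPM in Pea3 TKO 1 and 2 and to 102.7 CPM in Pea3 TKO 3, and 2 of the 12, Lum and Dcn, passed the test. Y-linked genes summed to 135.7 to 174.7 CPM in the 3 Control libraries and to 139.0 CPM in Pea3 TKO 3, but to 0.444 and 0.210 CPM in Pea3 TKO 1 and 2, which were also the libraries with Xist (106.4 and 32.5 CPM). Embryo sex was thus unequal between the groups, and the guidance results are also given with sex taken into account. The part of the marker differences in the guidance results was not tested, and in bulk tissue fewer cells of a type and less RNA per cell cannot be told apart.

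Of the 69 guidance genes, 58 passed the filter on low counts and were tested. Among them 30 changed (51.7%) at an adjusted p below 0.05 in edgeR's quasi-likelihood test with Benjamini-Hochberg adjustment, against 25.0% of all 13087 genes tested. In Pea3 TKO 19 rose (32.8%, against 13.6% of all genes) and 11 fell (19.0%, against 11.3%). At an adjusted p below 0.01, 20 passed (34.5%, against 10.9%), and 23 passed with a log2 fold change of at least 1 in size (39.7%, against 12.0%). The median log2 fold change of the 58 was 0.46, against 0.01 for all genes, and the median of its size was 0.93, against 0.38. Genes were also split into 4 equal bins of mean CPM over all genes. From lowest to highest, 9 of 20, 7 of 11, 6 of 13 and 8 of 14 guidance genes passed, against 16.7%, 25.6%, 26.0% and 31.5% of all genes. In the lowest bin Dcc, Sema3e, Sema4f, Sema7a and Slit3 passed the filter only through the group where they were high. Such genes are prone to be called, so no conclusion is drawn from that bin. They are also among the 30. The 3 mutant libraries lay wholly above or wholly below the 3 controls for 35 guidance genes (60.3%, against 43.9% of all genes). They lay above for 23 (39.7%, against 22.5%) and below for 12 (20.7%, against 21.3%), so the share below was near that of all genes. By role, 12 ligands rose and 7 fell of 31 tested, and 7 receptors rose and 4 fell of 27 tested. By family, 4 of 8 ephrins tested were called (50.0%), 2 of 11 Eph receptors (18.2%), 10 of 18 semaphorins (55.6%), 3 of 8 plexins (37.5%), all 4 Slit and Robo genes and 7 of 8 genes of the netrin system (87.5%), against 25.0% of all genes.

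**Figure D1:**
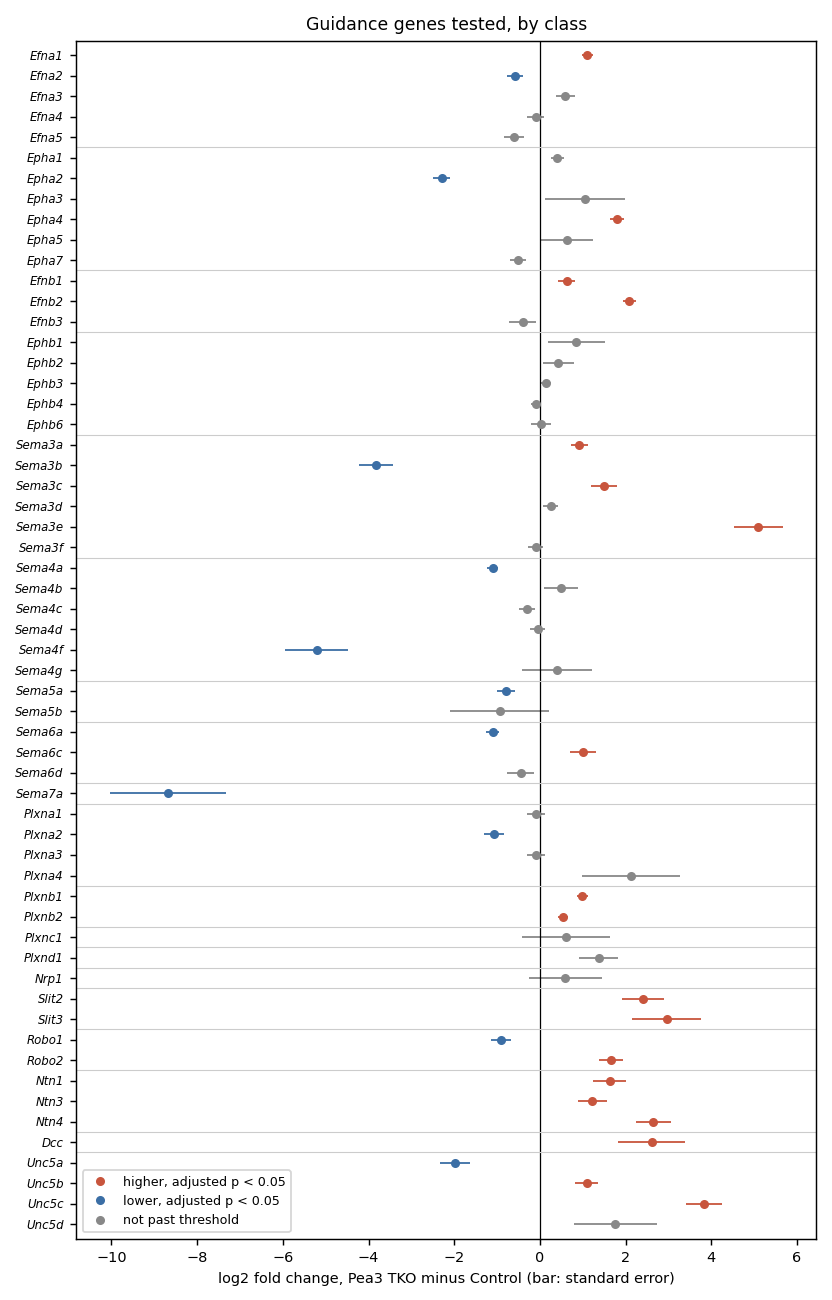
Log2 fold change, Pea3 TKO minus Control, of the 58 guidance genes tested, grouped by class, with the standard error of the fit as bars (n = 3 per group), red for genes higher and blue for genes lower at an adjusted p below 0.05 and grey for the others. In all, 19 genes lie to the right and 11 to the left past the threshold, while the fitted value of Sema7a, which had no count in any mutant library, depends on the prior count of the fit and is not a measured size.

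Among the 8 ephrins, all of which were tested, 3 rose and 1 fell. Efnb2, the transmembrane ligand of Ephb4 and other EphB receptors, had the smallest p-value of the guidance genes. It was at 50.7, 38.01 and 37.97 CPM in Control and 191, 184 and 161 CPM in Pea3 TKO, with a log2 fold change of 2.08, SE 0.15 and edgeR adjusted p = 3.77e-05. Every mutant library exceeded the highest control by a wide margin. Efna1, a membrane-anchored ligand that binds Epha2 strongly, was at 100.1, 97.2 and 81.0 CPM in Control and 226, 183 and 191 CPM in Pea3 TKO (log2 fold change 1.11, SE 0.13, edgeR adjusted p = 0.000579), again with no overlap. Efnb1, an X-linked relative of Efnb2, was at 18.4, 26.9 and 23.3 CPM in Control and 32.9, 41.1 and 31.7 CPM in Pea3 TKO (log2 fold change 0.62, SE 0.20, edgeR adjusted p = 0.0483). The groups did not overlap, but leaving out any of the 6 libraries left Efnb1 short of the threshold, with a log2 fold change of 0.49 to 0.75 and an edgeR adjusted p of up to 0.166, and with a covariate for Y-linked RNA the log2 fold change was 0.45 (edgeR adjusted p = 0.402). Without a filter on low counts its edgeR adjusted p was 0.0524. Efna2 was the only ephrin that fell, from 55.2, 49.2 and 48.4 CPM in Control to 31.9, 43.1 and 27.7 CPM in Pea3 TKO (log2 fold change -0.57, SE 0.18, edgeR adjusted p = 0.0464). Its groups were close to each other, and the call was lost without any of the libraries except Pea3 TKO 2, the log2 fold change ranging over -0.77 to -0.44 and the edgeR adjusted p reaching 0.126, and with upper-quartile scaling (edgeR adjusted p = 0.0584). The ephrins Efna3, Efna4, Efna5 and Efnb3 did not pass, at log2 fold changes of 0.59, -0.10, -0.61 and -0.41. For Efna3 and Efna4, 14.1% and 10.5% of the exonic bases are shared with another annotated gene, and the strand setting of the counting was not stated.

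Of the 14 Eph receptors, 11 were tested and 2 changed (18.2%, against 25.0% of all genes), in opposite directions. Epha2, the receptor that prefers ephrin-A1, was at 65.1, 93.9 and 97.0 CPM in Control and 20.4, 16.9 and 15.2 CPM in Pea3 TKO. The mutant libraries were all below the lowest control, Control 1, with a log2 fold change of -2.29, SE 0.20 and edgeR adjusted p = 9.52e-05. Epha4, a receptor that accepts ephrins of both classes, was at 25.6, 23.5 and 17.6 CPM in Control and 83.4, 73.7 and 75.2 CPM in Pea3 TKO, without overlap (log2 fold change 1.80, SE 0.17, edgeR adjusted p = 0.000168). The ratio of Epha4 to Epha2, each per kilobase of exon, was 0.228, 0.145 and 0.105 in the controls and 2.38, 2.54 and 2.88 in the mutants, so that Epha2 was the more abundant in each control and Epha4 in each mutant. The most abundant EphB transcripts did not pass the test. Ephb4 was at 169.6, 163 and 190.1 CPM in Control and 160.0, 159.9 and 167 CPM in Pea3 TKO (log2 fold change -0.10, SE 0.11, edgeR adjusted p = 0.546). Ephb3 was at 126, 159 and 126 CPM in Control and 142, 162 and 147 CPM in Pea3 TKO (log2 fold change 0.14, SE 0.13, edgeR adjusted p = 0.484). In both the groups overlapped, and the p-values do not show that the levels were equal. The other 7 tested, Epha1, Epha3, Epha5, Epha7, Ephb1, Ephb2 and Ephb6, had log2 fold changes between -0.51 for Epha7 and 1.05 for Epha3. Epha1 (edgeR adjusted p = 0.0624) and Epha7 (edgeR adjusted p = 0.0691) came nearest to the threshold and passed it with DESeq2 and with limma-voom.

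To show the letters an ETS factor could meet near these genes, RefSeq promoter windows of 250 bases before a gene's start to 50 after it (GRCm38.p6) were searched on both strands for AGGAAG, the core of the PEA3 site, and CCGGAA, a common ETS core. The motifs share GGAA and can overlap. Windows were matched for 59 of the 69 genes, the others being Dcc, Efnb3, Ntn1, Plxna1, Plxna4, Sema3b, Sema3f, Sema6a, Slit1 and Unc5d. AGGAAG was found for 27 of the 59 genes, against 38.4% of all 27025 genes with a window, and in 28 of their 75 windows (37.3%), against 35.4% of all windows. CCGGAA was found for 7 of the 59 genes, against 16.7% of all genes with a window, and in 7 of the 75 windows (9.3%), against 14.9%. A share by gene also depends on how many windows each gene has, so the shares by window are the closer comparison. Of the genes with a window, AGGAAG was present for 7 of 17 that rose, 3 of 9 that fell, 12 of 23 that did not pass and 5 of 10 that were not tested. The 4 stretches printed here belong to 2 genes that rose and 2 that fell, all 4 of them called in every alternative tried, and show that the motif was present and absent in each direction. Each is the 250 bases before the start, runs 5′ to 3′ on the strand of its gene and has matches to AGGAAG, or to CTTCCT where the match is on the other strand, in capitals. The Sema4f window (chr6:82939770-82940019, minus strand) holds 3 matches and that of Efna1 (chr3:89279646-89279895, minus strand), which lies inside the annotated span of the gene but outside its exons, upstream of a second start, holds 2. The stretch before the outer start of Efna1 (chr3:89281143-89281201, minus strand) holds no match. The windows of Epha2 (chr4:141300971-141301220, plus strand) and Efnb2 (chr8:8661243-8661492, minus strand) hold neither motif. A match is a description of the letters and not a site of binding.

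Sequences upstream of the start:
Sema4f: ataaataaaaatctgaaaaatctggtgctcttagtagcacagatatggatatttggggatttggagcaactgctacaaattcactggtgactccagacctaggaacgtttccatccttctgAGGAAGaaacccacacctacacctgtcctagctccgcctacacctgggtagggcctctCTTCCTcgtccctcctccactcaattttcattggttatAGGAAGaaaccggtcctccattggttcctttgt
Epha2: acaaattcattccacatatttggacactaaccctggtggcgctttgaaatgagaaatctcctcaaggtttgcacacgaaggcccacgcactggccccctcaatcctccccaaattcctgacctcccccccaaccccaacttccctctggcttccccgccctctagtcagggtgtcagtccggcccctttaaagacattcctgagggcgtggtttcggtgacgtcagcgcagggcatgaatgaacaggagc
Efna1: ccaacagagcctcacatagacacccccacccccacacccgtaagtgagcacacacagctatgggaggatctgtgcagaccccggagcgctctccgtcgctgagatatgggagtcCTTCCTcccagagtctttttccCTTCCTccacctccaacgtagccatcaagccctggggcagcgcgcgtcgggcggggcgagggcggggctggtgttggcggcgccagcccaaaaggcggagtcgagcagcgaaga
Efnb2: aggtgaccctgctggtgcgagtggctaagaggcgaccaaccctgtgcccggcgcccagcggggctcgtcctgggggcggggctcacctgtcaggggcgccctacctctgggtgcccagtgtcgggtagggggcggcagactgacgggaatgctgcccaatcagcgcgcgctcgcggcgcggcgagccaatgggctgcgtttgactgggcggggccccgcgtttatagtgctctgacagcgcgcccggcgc

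The class 3 semaphorins, the secreted group, changed in both directions, with 3 rising and 1 falling of 6 tested. Of all genes 13.6% rose and 11.3% fell. Sema3b (chr9:107597674-107609229) was the guidance transcript with the highest level per kilobase in Control and fell to rank 19 in Pea3 TKO. It was at 235, 499 and 677 CPM in Control and 28.6, 46.9 and 24.0 CPM in Pea3 TKO (log2 fold change -3.83, SE 0.39, edgeR adjusted p = 0.00024). The controls themselves spread widely, with Control 1 the lowest, yet the lowest control was still well above the highest mutant. Sema3f, which lies 72.3 kb from Sema3b on chromosome 9 and acts through neuropilin 2, did not pass, at 217, 256 and 273 CPM in Control and 288, 227 and 181 CPM in Pea3 TKO (log2 fold change -0.10, SE 0.17, edgeR adjusted p = 0.707), and its groups overlapped. Per kilobase of exon the ratio of Sema3f to Sema3b went from 0.849, 0.472 and 0.371 in the controls to 9.27, 4.44 and 6.95 in the mutants. Sema3e, which can bind Plxnd1 without a neuropilin, was close to the limit of detection in Control at 0.338, 0.872 and 0.130 CPM and stood at 18.5, 16.9 and 11.2 CPM in Pea3 TKO (log2 fold change 5.09, SE 0.57, edgeR adjusted p = 0.000423). Sema3c, at 18.9, 11.6 and 14.1 CPM in Control and 31.6, 62.2 and 32.2 CPM in Pea3 TKO (log2 fold change 1.50, SE 0.30, edgeR adjusted p = 0.00687), and Sema3a, at 30.3, 41.9 and 52.6 CPM in Control and 80.3, 83.6 and 72.3 CPM in Pea3 TKO (log2 fold change 0.92, SE 0.20, edgeR adjusted p = 0.00864), are cues with known effects on salivary gland and lung branching, and neither had overlapping groups. These 3 genes and Sema3d lie in a row on chromosome 5, Sema3a 422.7 kb from Sema3e and Sema3e 3317.6 kb from Sema3c, but Sema3d, 536.5 kb from Sema3a, did not pass (log2 fold change 0.25, SE 0.16, edgeR adjusted p = 0.308). Together the class summed to 927 ± 292 CPM in Control and 580.5 ± 85.3 CPM in Pea3 TKO (SD, n = 3), Control 1 being as low as the mutants at 617 CPM.

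Among the membrane-held semaphorins of classes 4 to 7, 5 fell and 1 rose of 12 tested (50.0% called, against 25.0% of all genes). Sema4a, a transmembrane semaphorin known from retina and immune cells, was at 157, 192 and 200.0 CPM in Control and 85.9, 92.1 and 77.9 CPM in Pea3 TKO (log2 fold change -1.10, SE 0.13, edgeR adjusted p = 0.000536). Sema6a, a ligand of Plxna2 and Plxna4, was at 178, 213 and 264 CPM in Control and 106, 106 and 93.4 CPM in Pea3 TKO (log2 fold change -1.10, SE 0.15, edgeR adjusted p = 0.00107). Both were lower in all 3 mutants than in any control. Sema4f (chr6:82911885-82939769) fell furthest of the genes with counts in both groups, from 8.51, 9.60 and 14.3 CPM to 0.0635, 0.699 and 0.117 CPM (log2 fold change -5.21, SE 0.73, edgeR adjusted p = 0.00113). At 1, 10 and 2 counts, the mutant libraries were at or near the limit of detection. Sema7a, a lipid-anchored semaphorin that binds Plxnc1 and integrins, had 23, 61 and 69 counts in Control and none in any mutant library, which made it at least 16.6-fold lower when each mutant library is set to 3 counts (edgeR adjusted p = 0.00372). Sema5a was at 75.9, 129 and 141 CPM in Control and 67.0, 70.3 and 62.1 CPM in Pea3 TKO (log2 fold change -0.80, SE 0.21, edgeR adjusted p = 0.0216), with Control 1 near the mutants. Its call was lost without each library except Control 1 (log2 fold change -1.03 to -0.63, edgeR adjusted p of up to 0.0841). Sema6c alone rose, from 9.92, 7.98 and 7.48 CPM to 21.0, 19.3 and 10.8 CPM (log2 fold change 1.01, SE 0.31, edgeR adjusted p = 0.0382), and was not called without Control 2, Control 3, Pea3 TKO 1 or Pea3 TKO 2 (log2 fold change 0.83 to 1.25, edgeR adjusted p of up to 0.127) or with limma-voom (adjusted p = 0.0583). The other 6 tested, Sema4b, Sema4c, Sema4d, Sema4g, Sema5b and Sema6d, ranged from -0.94 for Sema5b to 0.49 for Sema4b in log2 fold change. The summed level of class 4 went from 245, 304 and 317 CPM in the controls to 169, 180.2 and 175 CPM in the mutants, and that of class 6 from 212, 273 and 334 to 168, 159 and 132 CPM.

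**Figure D2:**
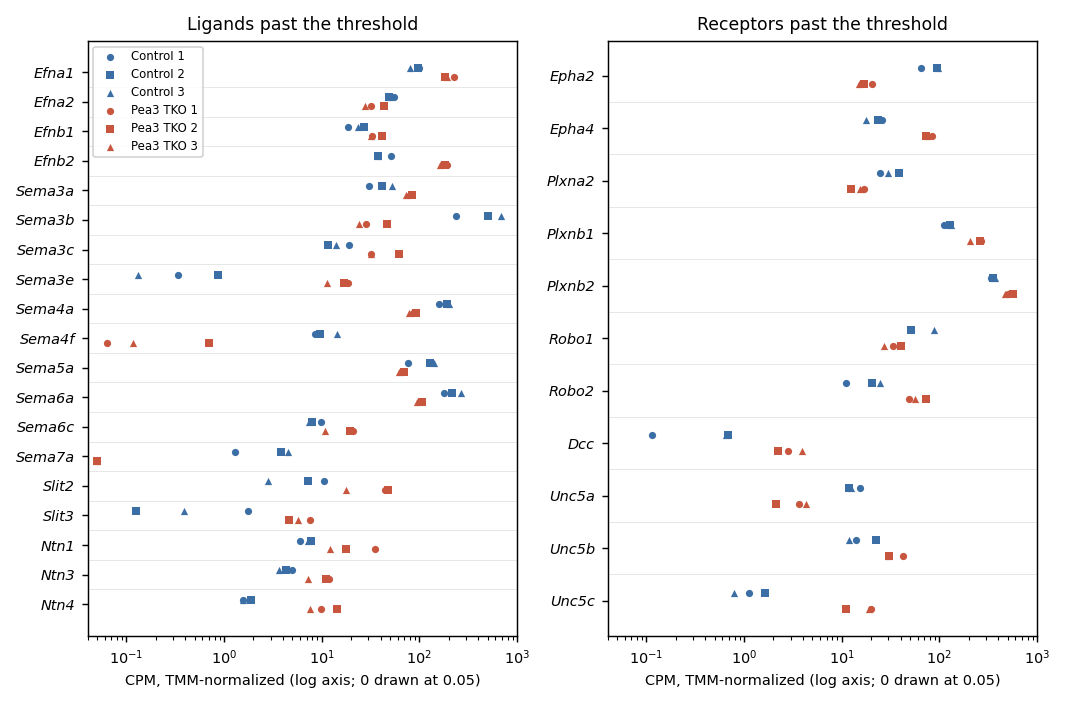
TMM-normalized CPM on a log axis of each of the 30 guidance genes past the threshold, ligands on the left and receptors on the right, with 1 point per library (blue Control, red Pea3 TKO, and circle, square and triangle for replicates 1, 2 and 3). No gene shown has overlapping groups, and for Sema3b the blue points run from 235 to 677 CPM and the red from 24.0 to 46.9 CPM, while a value of 0 is drawn at 0.05.

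Of the receptors for semaphorins, 3 of the 8 plexins tested changed (37.5%, against 25.0% of all genes). Plxnb2 and Plxnb1, receptors of class 4 semaphorins, rose together. Plxnb2 was at 339, 353 and 367 CPM in Control and 499.7, 560.4 and 474 CPM in Pea3 TKO (log2 fold change 0.53, SE 0.11, edgeR adjusted p = 0.00808), and was the most abundant guidance receptor per kilobase in both groups. Plxnb1 was at 111, 127 and 131 CPM in Control and 266, 259 and 208 CPM in Pea3 TKO (log2 fold change 0.99, SE 0.13, edgeR adjusted p = 0.000915). In neither did the groups overlap, and the summed plexin-B level was 1.59 times that of Control. Plxna2, a receptor of class 6 semaphorins and a partner of neuropilins, fell from 24.6, 38.6 and 30.1 CPM to 16.8, 12.5 and 15.2 CPM (log2 fold change -1.07, SE 0.23, edgeR adjusted p = 0.00931). Plxna1, the plexin-A transcript with the highest CPM, was at 108, 178 and 194 CPM in Control and 179, 138 and 135 CPM in Pea3 TKO (log2 fold change -0.09, SE 0.21, edgeR adjusted p = 0.791), with overlapping groups, and the X-linked Plxna3 was at a log2 fold change of -0.09. Plxnd1, the receptor of Sema3e, was at 2.09, 1.93 and 3.45 CPM in Control and 5.59, 5.45 and 8.22 CPM in Pea3 TKO. All mutants were above all controls, and the test put it on the threshold without passing (log2 fold change 1.37, SE 0.45, edgeR adjusted p = 0.05), while DESeq2 (adjusted p = 0.0202) and limma-voom (adjusted p = 0.0409) called it. Plxnc1, the receptor of Sema7a, was under 1 CPM in every library but Pea3 TKO 3, at 0.902, 0.623 and 0.910 CPM in Control and 0.127, 0.489 and 3.11 CPM in Pea3 TKO. Neuropilins were scarce. Nrp1 was at 2.99, 0.810 and 1.56 CPM in Control and 3.87, 3.85 and 0.411 CPM in Pea3 TKO (log2 fold change 0.59, SE 0.85, edgeR adjusted p = 0.652), and Nrp2, at 1.07, 0.187 and 0.650 CPM in Control and 0.254, 0.140 and 0.294 CPM in Pea3 TKO, was below the filter. Per kilobase, Nrp1 in Control was at 0.183 CPM, against 98.5 CPM for Sema3b and 47.9 CPM for Sema3f, while Sema3e, at 0.0481 CPM, was below it.

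In the Slit and Robo system all 4 genes tested changed, both ligands upward and the receptors in opposite directions. Slit2, a large secreted ligand, was at 10.6, 7.23 and 2.80 CPM in Control and 43.9, 47.7 and 17.9 CPM in Pea3 TKO (log2 fold change 2.40, SE 0.49, edgeR adjusted p = 0.00691). Slit3 was at 1.75, 0.125 and 0.390 CPM in Control and 7.62, 4.61 and 5.70 CPM in Pea3 TKO (log2 fold change 2.96, SE 0.81, edgeR adjusted p = 0.0256). Mutant libraries were all higher than the controls for both, but the spread was wide, with Pea3 TKO 3 the lowest for Slit2. The call of Slit3 was lost without any of the libraries except Control 1 (log2 fold change 2.46 to 4.50, edgeR adjusted p of up to 0.0825). Pea3 TKO 1 and 2 were the libraries with more mesenchymal marker RNA (525.3 and 688.5 CPM, against 102.7 CPM in Pea3 TKO 3). They were also the libraries with Xist, so these differences cannot be told apart, and their part in the Slit values was not tested. With Pea3 TKO 3 as the only mutant the log2 fold change of Slit2 was 1.39 and that of Slit3 was 2.91. Robo2, a Slit receptor, was at 11.2, 20.3 and 24.8 CPM in Control and 48.6, 72.6 and 56.9 CPM in Pea3 TKO (log2 fold change 1.66, SE 0.28, edgeR adjusted p = 0.0029). Robo1, its close relative, was at 51.1, 51.7 and 87.7 CPM in Control and 33.6, 40.8 and 27.4 CPM in Pea3 TKO (log2 fold change -0.90, SE 0.24, edgeR adjusted p = 0.0222). No mutant overlapped a control in either, though the call of Robo1 was lost without Control 3, Pea3 TKO 1 or Pea3 TKO 3 (log2 fold change -1.06 to -0.60, edgeR adjusted p of up to 0.0814). The 2 genes are neighbours on chromosome 16, with 845.7 kb between them. Their ratio per kilobase of exon, Robo2 to Robo1, was 0.212, 0.381 and 0.275 in the controls and 1.41, 1.73 and 2.02 in the mutants, and the summed Robo level stayed within the spread at 82.3 ± 26.7 CPM in Control and 93.4 ± 17.4 CPM in Pea3 TKO (SD, n = 3). Slit1 was not tested, with 44 counts in Control 2, 3 in Control 3 and none elsewhere, and Robo3 and Robo4, which border each other on chromosome 9, had at most 7 and 0 counts.

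All 3 netrins tested passed the test upward, and Ntn5, had no count. Ntn4, a netrin that binds laminin networks in basement membranes, was at 1.58, 1.87 and 1.56 CPM in Control and 9.72, 14.3 and 7.52 CPM in Pea3 TKO (log2 fold change 2.65, SE 0.40, edgeR adjusted p = 0.00175). Ntn1, the best studied netrin and a ligand of Dcc and Unc5 receptors, was at 5.98, 7.85 and 7.22 CPM in Control and 35.2, 17.8 and 12.04 CPM in Pea3 TKO (log2 fold change 1.63, SE 0.38, edgeR adjusted p = 0.0134). In both the mutants were all higher, with Pea3 TKO 3 the lowest of them. Ntn3 was at 4.90, 4.30 and 3.64 CPM in Control and 11.7, 10.98 and 7.28 CPM in Pea3 TKO (log2 fold change 1.22, SE 0.34, edgeR adjusted p = 0.0283), shares 4.46% of its exonic bases with other annotated genes, and was not called without Control 2, Control 3, Pea3 TKO 1 or Pea3 TKO 2 (log2 fold change 1.09 to 1.40, edgeR adjusted p of up to 0.0923). With a covariate for Y-linked RNA, Ntn1 was at a log2 fold change of 0.78 (edgeR adjusted p = 0.326) and Ntn3 at 0.78 (edgeR adjusted p = 0.379), and only Ntn4 of the 3 stayed called, at 2.16 (edgeR adjusted p = 0.0354). With Pea3 TKO 3 alone against the controls the log2 fold changes of Ntn1, Ntn3 and Ntn4 were 0.79, 0.78 and 2.18. Pea3 TKO 1 and 2 had more mesenchymal marker RNA (525.3 and 688.5 CPM, against 102.7 CPM in Pea3 TKO 3) and were also the libraries with Xist. These differences cannot be told apart, and their part in the netrin values was not tested. Summed over the class, netrin RNA was at 12.5, 14.0 and 12.4 CPM in the controls and 56.6, 43.0 and 26.8 CPM in the mutants.

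Netrin receptors were less uniform, with 3 rising and 1 falling of 5 tested, while 13.6% of all genes rose and 11.3% fell. Unc5c was barely present in Control at 1.13, 1.62 and 0.780 CPM and stood at 20.1, 10.98 and 19.2 CPM in Pea3 TKO (log2 fold change 3.82, SE 0.41, edgeR adjusted p = 0.000334). Unc5a went the other way, from 15.2, 11.9 and 12.5 CPM to 3.62, 2.10 and 4.29 CPM (log2 fold change -1.98, SE 0.35, edgeR adjusted p = 0.00395). Both had clear gaps between the groups, and per kilobase the ratio of Unc5c to Unc5a went from 0.0161, 0.0296 and 0.0135 in the controls to 1.21, 1.14 and 0.976 in the mutants. Unc5b, the Unc5 transcript with the highest Control CPM, was at 13.9, 22.4 and 11.9 CPM in Control and 42.4, 30.6 and 29.7 CPM in Pea3 TKO (log2 fold change 1.09, SE 0.27, edgeR adjusted p = 0.0172) and lost its call without Control 3 or Pea3 TKO 1 (log2 fold change 0.91 to 1.41, edgeR adjusted p of up to 0.0696). Dcc, the receptor behind attraction by netrin, was at 0.113, 0.685 and 0.650 CPM in Control and 2.79, 2.24 and 3.88 CPM in Pea3 TKO (log2 fold change 2.61, SE 0.78, edgeR adjusted p = 0.0361). These are low levels, and although the groups did not overlap, the call was lost without any of the 6 libraries (log2 fold change 2.14 to 2.95, edgeR adjusted p of up to 0.113) and with the replicate number as a block. Unc5d, at 0.0564, 2.99 and 0.585 CPM in Control and 3.68, 3.43 and 5.23 CPM in Pea3 TKO, did not pass (log2 fold change 1.76, SE 0.97, edgeR adjusted p = 0.218).

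Summed by class, Slit RNA in Pea3 TKO was 4.94 times its Control level, netrin RNA 3.25 times, ephrin-B RNA 2.91 times and Unc5 RNA 1.84 times, with no overlap of the libraries in any of the 4. Dcc and Plxnd1, classes of 1 gene, were at 6.15 and 2.58 times, plexin-B at 1.59 times and neuropilins, with overlapping libraries, at 1.21 times. The EphA and EphB sums were nearly level, at 274 ± 28.6 and 375 ± 25.2 CPM in Control and 274 ± 7.91 and 392 ± 18.4 CPM in Pea3 TKO, although for EphA this held a fall of Epha2 and a rise of Epha4. All the semaphorin classes had lower means in the mutant, at ratios of 0.626 for class 3, 0.606 for class 4, 0.575 for class 5 and 0.561 for class 6, but the class 3 sum of Control 1 lay within the mutant range. For class 3 this held a fall of Sema3b from a mean of 470 to 33.2 CPM, while Sema3a, Sema3c and Sema3e rose. Nearly all of class 5 was Sema5a, at means of 116 and 66.4 CPM, whose call was lost without most single libraries. A sum of CPM is weighted toward the abundant and longer transcripts of its class, and no test was made on it.

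**Figure D3:**
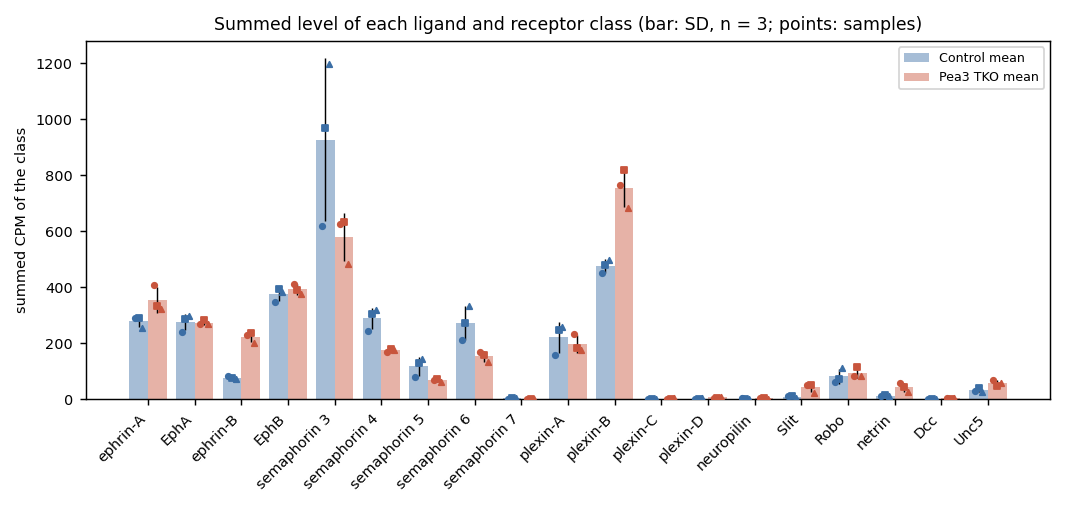
Summed TMM-normalized CPM of each ligand and receptor class, with bars for the group mean, error bars for the SD (n = 3) and points for the libraries (blue Control, red Pea3 TKO). Ephrin-B goes from 76.3 to 222 CPM and plexin-B from 476 to 756 CPM, and the class 3 semaphorins have the widest spread among controls.

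Levels of different genes were compared per kilobase of exon. In Control the order was led by Sema3b at 98.5 ± 46.6 CPM per kb (SD, n = 3), followed by Efna1 at 50.7 ± 5.61, Sema3f at 47.9 ± 5.55, Plxnb2 at 45.7 ± 1.80 and Efna4 at 45.2 ± 6.63. The last 4 lay within each other's spread. In Pea3 TKO the order was led by Efna1 at 109 ± 12.8 CPM per kb and Plxnb2 at 66.2 ± 5.75, which did not come within each other's spread. Efnb2 went from rank 22 to rank 7, Sema3b from 1 to 19 and Epha2 from 12 to 28. Within families, 5 pairs chosen after their values were seen showed a changed balance, and these are descriptions without a test. Besides the 4 pairs given above, the ratio of Efna1 to Efna2 went from 2.11, 2.30 and 1.95 in the controls to 8.27, 4.93 and 8.00 in the mutants.

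**Figure D4:**
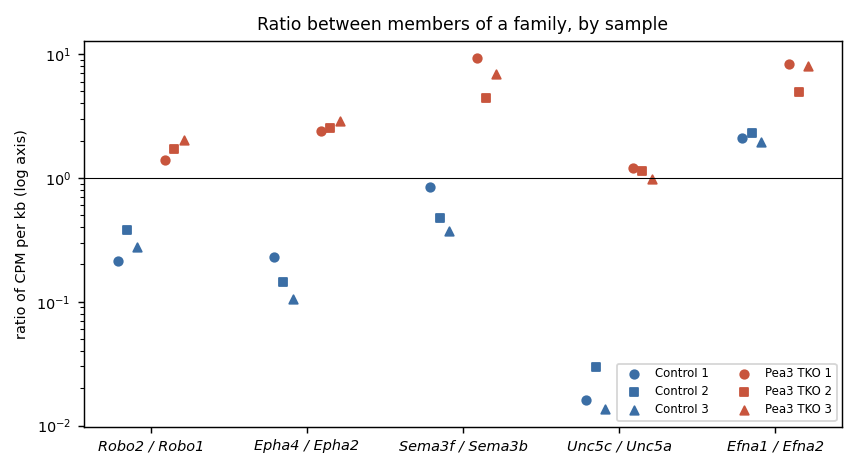
Ratio of CPM per kb between 2 genes of a family in each library on a log axis (blue Control, red Pea3 TKO, circle, square and triangle for replicates 1, 2 and 3), with a line at equal levels. Robo2/Robo1, Epha4/Epha2 and Sema3f/Sema3b cross the line between the groups, Unc5c/Unc5a approaches or crosses it, and Efna1/Efna2 lies above it in all 6 libraries.

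Other genes of the guidance pathways were taken from a list of 77 co-receptors, alternative ligands, proteases and cytoplasmic transducers. Of these, 71 were tested, 11 rose (15.5%) and 7 fell (9.86%), against 13.6% and 11.3% of all genes, so the list as a whole was near the background. The 6 with the smallest p-values are given. Flt1, the decoy-like VEGF receptor, had 2, 0 and 0 counts in Control and 121, 309 and 542 counts in Pea3 TKO (edgeR adjusted p = 0.000213), so it was below the limit of detection in every control and well above it in every mutant. Kdr, the other main VEGF receptor of endothelium, had no count in Control and 22, 34 and 0 counts in Pea3 TKO and was not tested, Pecam1 was between 0 and 3.19 CPM in the 6 libraries, and Cdh5 and Cldn5 were at or near 0. Erbb2, a receptor tyrosine kinase that couples to plexin-B, was at 299, 249 and 262 CPM in Control and 628, 613 and 563 CPM in Pea3 TKO (log2 fold change 1.16, SE 0.12, edgeR adjusted p = 0.000233). Vav3, an exchange factor downstream of Eph receptors, was at 40.0, 19.0 and 23.2 CPM in Control and 97.5, 104 and 126 CPM in Pea3 TKO (log2 fold change 1.99, SE 0.26, edgeR adjusted p = 0.000765). Ngef, an exchange factor that acts downstream of EphA receptors, was at 0.225, 0.623 and 0.585 CPM in Control and 7.62, 4.82 and 6.75 CPM in Pea3 TKO (log2 fold change 3.73, SE 0.59, edgeR adjusted p = 0.00209). These 3 rose without overlap, as did Sdc1, a heparan sulfate proteoglycan of epithelia, at 408, 322 and 322 CPM in Control and 647, 638 and 566 CPM in Pea3 TKO (log2 fold change 0.81, SE 0.13, edgeR adjusted p = 0.00222). Pdzrn3, an E3 ubiquitin ligase, was at 34.3, 48.7 and 50.3 CPM in Control and 12.8, 16.2 and 11.5 CPM in Pea3 TKO (log2 fold change -1.72, SE 0.22, edgeR adjusted p = 0.000765), with all mutants below all controls. The others that rose were Plxdc2, Rgmb, Rras, Mical1, Fyn and Cdc42, at log2 fold changes of 0.35 to 1.68, and the others that fell were Itgb1, Farp1, Flrt3, Limk1, Adam10 and Cfl1, at -1.01 to -0.39. Without Control 2 the calls went from 11 up and 7 down to 8 and 2, without Control 3 to 8 and 1, and without Pea3 TKO 2 to 10 and 3.

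The 11 guidance genes below the filter were Epha6, Epha8, Epha10, Nrp2, Ntn5, Plxnb3, Robo3, Robo4, Sema3g, Sema6b and Slit1. Of them 6 (Epha6, Epha10, Ntn5, Plxnb3, Robo4 and Sema3g) had no count in any library, which allows up to 3 counts each, or 0.169 to 0.210 CPM, and the other 5 had at most 4 (Epha8) to 44 (Slit1) counts. Robo4, a receptor typical of endothelium, was thus not detected at this depth.

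How far the calls rested on particular libraries was examined for each of the 30 genes. In fits that left out 1 library, 21 were called every time, a share that was not computed for all genes called. None of the 30 changed direction in any alternative. Their groups did not overlap, so leaving out libraries could hardly have reversed them. A covariate for the level of Y-linked genes takes account of embryo sex but leaves Pea3 TKO 3 to carry most of the contrast. With it, 14 of the 58 guidance genes tested were called (8 higher and 6 lower), against 6.61% of all genes tested. All 14 were among the 30. Pea3 TKO 3, the mutant library that resembled the controls in Y-linked and mesenchymal marker RNA, was also set alone against the 3 controls. Called in every alternative were 9 genes, with Efna1, Efnb2, Epha4, Sema3e and Unc5c higher and Epha2, Sema3b, Sema4a and Sema4f lower. In the same order, their log2 fold changes with Pea3 TKO 3 alone were 1.05, 1.94, 1.77, 4.64, 4.03, -2.48, -4.29, -1.22 and -6.43. Ntn4, Plxnb1, Robo2, Sema6a and Sema7a passed with the Y-linked covariate but not with Pea3 TKO 3 alone. The remaining 16 passed in neither: Dcc, Efna2, Efnb1, Ntn1, Ntn3, Plxna2, Plxnb2, Robo1, Sema3a, Sema3c, Sema5a, Sema6c, Slit2, Slit3, Unc5a and Unc5b. Among them the log2 fold change moved most for Slit2, from 2.40 to 1.41 with the covariate, for Ntn1, from 1.63 to 0.78, and for Sema6c, from 1.01 to 0.37. Control 1, which had the most epidermal marker RNA of the controls, was the control nearest to the mutants for 17 of the 30 genes (56.7%), near the share among all genes called (55.4%). Pea3 TKO 3 was the mutant nearest to the controls for 13 of the 30 (43.3%, against 49.7% of all genes called). Among the 19 that rose it was nearest for 12 (63.2%, against 49.9%). Of the mutants it also kept the most Etv4 and Etv5 (28.4 and 177 CPM) and had the lowest epidermal marker sum (3164 CPM). The part of these differences in the calls was not tested.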

How the data were processed

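Laser-captured lacrimal gland epithelium of mouse embryos at E14.5 was sequenced from 3 Control and 3 Pea3 TKO samples. Per the labels, RNA was amplified with the Ovation RNA-seq System V2, enriched for poly-A RNA and sequenced on an Illumina HiSeq2500, and the submitters' processing notes name bcl2fastq 2.17, STAR 2.5.2b, featureCounts 1.5.0-p3, DESeq and the mm10 build. The authors deposited whole-number read counts per gene symbol, not normalized. The strand setting and the handling of reads that match several genes were not given in the sources used here. Amplified reads carry no molecular identifiers, so detection limits cover counting error only.

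From these counts, 13087 of 23420 genes passed filterByExpr and were tested with edgeR 4.0.16 (TMM normalization, quasi-likelihood F-test, group as the only term, Benjamini-Hochberg adjustment over all genes tested, threshold 0.05) in R 4.3.3. Standard errors were derived from the F statistic. CPM values are TMM-normalized, and values per kilobase use exonic lengths from the GENCODE annotation of GRCm38 (mm10). The fitting script was checked on simulated counts with known changes. Alternatives were RLE and upper-quartile scaling, 2 other filters (none, or at least 1 CPM in 3 samples), DESeq2 1.42.0, limma-voom (limma 3.58.1), a replicate block, a Y-linked covariate, and leaving out each library, while the fit with Pea3 TKO 3 as the only mutant was added after seeing the data. Every guidance gene past the threshold was described by library, along with the most abundant member of each family and the 6 other pathway genes with the smallest p-values. The guidance genes, lists and motifs were chosen with earlier results of these data known. Within-group libraries differed by more than sampling noise, and none was a repeat of another.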

Additional observations from a re-analysis of the deposited data

How the results depend on the processing

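None of the 30 genes called changed direction under any alternative, and this was not counted for guidance genes outside the calls. The number of guidance genes called stayed between 29 and 34 with RLE or upper-quartile scaling, either other filter, DESeq2 and limma-voom. None of these settings moved the median of all genes by more than 0.04 on the log2 scale. Leaving out 1 library gave 21 to 29 calls (13 to 18 higher, 8 to 11 lower). The 35 non-overlapping genes became 36 to 41, but leaving out a library can only keep or raise that number. The matching share of all genes was not computed. Over all 13087 genes the 3268 calls (1783 higher, 1485 lower) became 1948 to 3344 (1131 to 1948 higher, 799 to 1417 lower), and the 18 calls among other pathway genes became 9 to 22 (8 to 16 higher, 1 to 8 lower). With the Y-linked covariate there were 14 guidance calls (8 higher, 6 lower), 865 over all genes (538 and 327) and 9 among other pathway genes, 1 of them lower. With Pea3 TKO 3 alone there were 9 (5 and 4), 597 (315 and 282) and 5 (3 and 2). This last fit takes the spread from the controls and assumes that the lone mutant varies like them. The covariate separates Pea3 TKO 1 and 2 from the other 4 libraries, which leaves fewer libraries to the contrast. The cause of the loss of calls was not tested.

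The replicate numbers do not mark a shared litter or day in the labels, so same-numbered libraries were not taken as pairs. Their deviations from the group means had correlations of 0.14, -0.06 and 0.05. The first was above the cutoff of 0.1 and the highest of all pairings across the groups. A pairing of unlike numbers, Control 2 with Pea3 TKO 3, reached 0.12. With the replicate number as a block 30 guidance genes were called, 29 of them shared with the fit without it, and Dcc was lost. Another 7 genes outside the 30 (Efna5, Epha1, Epha7, Plxna4, Plxnd1, Sema6d and Unc5d) passed in at least 1 alternative. The limit of 3 counts per library bounds what can be said of Sema4f, Sema7a, Slit3, Dcc and the Control level of Sema3e.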
